A study of Mus musculus with 2 samples.

Results

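The transcripts of 10 protein-folding genes were followed through single cells of the murine dentate gyrus (DG). The genes were chosen by name, as the Hsp90, Hsp70 and chaperonin genes that work in 3 compartments, and all 10 were found among the 15474 genes of the filtered count matrix. 5 act in the cytosol (Hsp90aa1, Hsp90ab1, Hspa8, Hspa4 and Hsph1), 2 in the endoplasmic reticulum, ER (Hsp90b1 and Hspa5), and 3 in mitochondria (Hspa9, Hspd1 and Hspe1). The DG was taken from C57BL/6J mice of 4 to 5 weeks and dissociated, and the single cells were sorted into 384-well plates for SORT-seq, a CEL-seq2 method that counts the 3′ ends of polyadenylated transcripts with unique molecular identifiers (UMIs). One plate held fresh cells pooled from 3 mice and gated with a dead-cell stain, and the other held MeOH-fixed cells pooled from 4 mice, stored frozen for 3 weeks and rehydrated in saline-sodium citrate buffer. The study asked what fixation does to such profiles. With 1 library per condition no test was possible, fixation cannot be told apart from pool, gate and plate, and every interval given is a 95% interval for counting error only.

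Hsp70 proteins bind short hydrophobic stretches of unfolded proteins and let go of them in a cycle of ATP hydrolysis, driven by J proteins and by nucleotide exchange factors. Hsp90 proteins act later on partly folded clients such as kinases and steroid receptors, while the chaperonin of mitochondria encloses single proteins in a ring closed by a lid. The same families are repeated in each compartment under separate control. Heat shock factors act on the cytosolic and mitochondrial genes through heat shock elements, and the unfolded protein response acts on the ER genes through ER stress elements.

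Promoter windows that hold these motifs are shown because the ER members and the mitochondrial chaperonin pair differ in them. Promoters were taken from RefSeq (GRCm38.p6), from 250 bases before to 50 after each start site, and 6 of the 10 members matched one (Hspa4, Hsph1, Hsp90b1, Hspa5, Hspd1 and Hspe1). The heat shock element was searched as GAA, TTC and GAA with any 2 bases between neighbours, and the ER stress element as CCAAT and CCACG with any 9 bases between them, on both strands. Of 32851 promoters, 0.603% held the first and 0.119% the second. Each window runs 5′ to 3′ on the strand of its gene, and capitals mark the fixed letters of the motif on either strand.
Hspa5, chr2:34772020-34772049, plus strand: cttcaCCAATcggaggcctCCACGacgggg
Hsp90b1, upstream match, chr10:86705632-86705661, minus strand: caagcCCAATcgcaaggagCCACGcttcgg
Hsp90b1, downstream match, chr10:86705527-86705556, minus strand: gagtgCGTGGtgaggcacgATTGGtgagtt
Hspe1 and, on the other strand, Hspd1, chr1:55088053-55088082, shown on the plus strand: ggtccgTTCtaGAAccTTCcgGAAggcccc
Hsph1, chr5:149636287-149636316, minus strand: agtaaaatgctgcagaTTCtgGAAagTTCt
Both ER members carried the ER stress element, Hspa5 with 1 match beginning 65 bases before its start site and Hsp90b1 with 2 matches, 212 and 107 bases before it. The 2 overlapping heat shock elements lie in a promoter window of both Hspd1 and Hspe1, beginning 144 bases before a start site of the first and 89 before that of the second. These start sites are those of RefSeq and differ from the gene ends of GENCODE given below, by which the printed windows of Hspd1, Hspa5 and Hsph1 lie inside the gene. The match in Hsph1 begins 36 bases after the start site. A match describes the letters in the window and is not a measured binding site.

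In the filtered data 64 fresh and 132 MeOH-fixed cells were kept, with 534122 and 729018 UMIs in total and medians of 6332 and 3463 transcripts per cell. The plates use the same 384 well barcodes, 24 of which held a kept cell in both. The markers of all 8 deposited cell identities summed highest in their own identity in the MeOH-fixed library, and those of 6 did in the fresh library. The 2 fresh cells called mature neurons had 4 of 5 mature-neuron markers at 0, were led by Kcnq1ot1 (28.0% of transcripts) and by Rn45s (58.2%), and held 0 UMIs of all 10 chaperone genes. The fresh immature-neuron markers summed highest in neuronal intermediate progenitor cells (nIPCs) and neuroblasts. Immature and mature neurons were 7 of 64 fresh cells and 44 of 132 MeOH-fixed cells, and gave 20.3% and 53.2% of the UMIs.

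The 10 genes together took 2319 UMIs, 0.434% of the fresh library, and 4314 UMIs, 0.592% of the MeOH-fixed library. Levels below are expected counts scaled to 1000000 transcripts (CPM) over the cells named, and log2 ratios are of MeOH-fixed over fresh CPM unless stated. The cytosolic sum was 3351 CPM in fresh cells and 4661 CPM after fixation, with a log2 ratio of 0.48 (0.39 to 0.56). The ER sum was 546 and 790 CPM, a log2 ratio of 0.53 (0.33 to 0.74), and the mitochondrial sum was 387 and 430 CPM, a log2 ratio of 0.15 (−0.11 to 0.41). The cytosolic and ER sums were thus higher in the MeOH-fixed library beyond counting error, and the mitochondrial sum was not. The directions hold on the CPM scale. As mean expected counts per cell, with no scaling, the log2 ratios were −0.13, −0.07 and −0.45, and per spike-in count they were −0.01, 0.05 and −0.34. These scales moved the median of all genes with at least 200 UMIs over both libraries by −0.61 and −0.49.

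A contrast between compartments does not depend on such a common scale. The log2 ratio of the ER sum minus that of the cytosolic sum was 0.06 (−0.16 to 0.27), an interval that holds 0. 3 of the alternatives rescale all sums alike and cannot move such a difference, and under the other 11 it ranged from −0.22 to 0.63 and was below 0 in 3. The same difference for the mitochondrial sum was −0.33 (−0.59 to −0.06), so that the mitochondrial genes lay below the cytosolic ones by more than counting error. Under the same 11 alternatives it ranged from −0.43 to −0.23. Within identities it was below 0 in 5 of 7, and at 0.01 in nIPCs and neuroblasts and 0.08 in astrocytes and radial glia-like cells (RGLs). These values carry no interval. The mitochondrial sum rested on 15 fresh and 3 MeOH-fixed UMIs in microglia and on 4 and 5 in endothelial cells. In fresh oligodendrocytes 14 of its 15 UMIs came from 1 cell. As shares of the members' own UMIs, the cytosolic genes took 78.2% (fresh) and 79.2% (MeOH-fixed), the ER genes 12.8% and 13.4%, and the mitochondrial genes 9.06% and 7.32%.

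**Figure D1:**
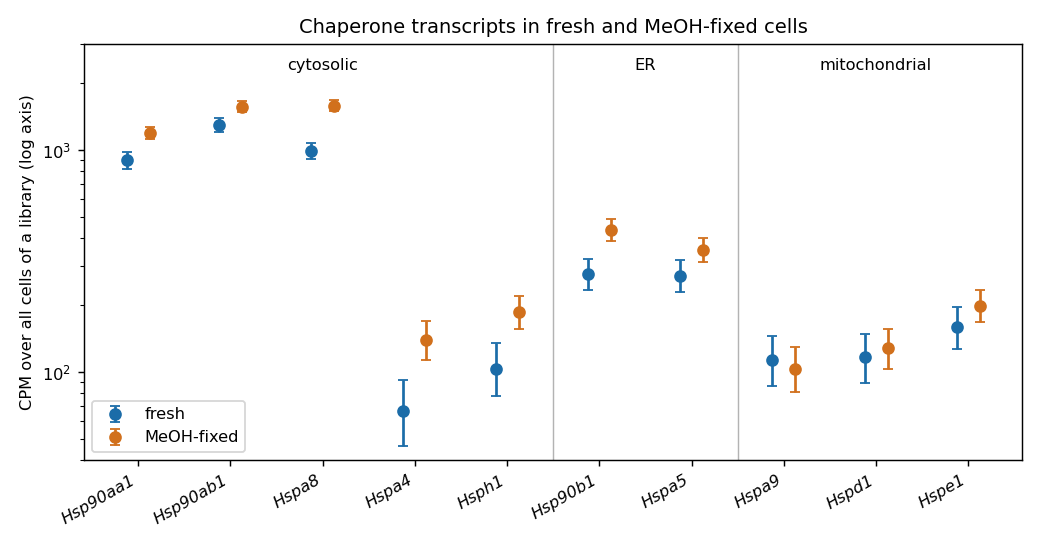
Level of each chaperone transcript over all filtered cells of the fresh and the MeOH-fixed library, in CPM on a log axis, with exact 95% Poisson intervals. On this scale 9 of 10 genes were higher in the MeOH-fixed library (4 of 10 as mean counts per cell or per spike-in count), from a log2 ratio of −0.12 for Hspa9 to 1.06 for Hspa4.

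Past 1.5-fold, 4 of the 10 members were higher in MeOH-fixed cells (Hspa8, Hspa4, Hsph1 and Hsp90b1) and 0 were lower. Among 1022 genes with at least 200 UMIs over both libraries, 29.6% were that much higher and 11.6% lower. Of the members 6 reached that count, and Hspa4 and Hsph1 did not. The median log2 ratio was 0.40 over the members and 0.25 over the 1022 genes. With the 6 identities of at least 5 cells in each library weighted equally, 3 members were past 1.5-fold (Hspa8 at 0.89, Hspe1 at 0.61 and Hsph1 at 0.59), against 15.3% of genes higher and 10.2% lower. The medians were then 0.20 and 0.12.

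Among the cytosolic members, Hsp90ab1 on chr17:45567775-45573271 encodes the constitutive Hsp90. Its level was 1297 CPM (1202 to 1396) in fresh and 1564 CPM (1474 to 1657) in fixed cells, for a log2 ratio of 0.27 (0.13 to 0.41). Hsp90aa1 on chr12:110690605-110702728 encodes the stress-inducible Hsp90, and was at 896 CPM (818 to 980) and 1192 CPM (1114 to 1273), a log2 ratio of 0.41 (0.25 to 0.57). Both intervals were above 0, with folds of 1.21 and 1.33, and both ratios turned to −0.34 and −0.20 as mean counts per cell and to −0.22 and −0.08 per spike-in count. With each cell thinned to 800 UMIs the ratio of Hsp90ab1 was −0.10.

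Hspa8 on chr9:40800984-40810087 encodes the constitutive Hsc70, which also uncoats clathrin vesicles at synapses. Its level was 988 CPM (906 to 1076) in fresh and 1582 CPM (1492 to 1676) in fixed cells, for a log2 ratio of 0.68 (0.53 to 0.83). Small nucleolar RNA genes lie within it on the same strand. Hspa4 on chr11:53259814-53300457 and Hsph1 on chr5:149614287-149636376 encode Hsp110 proteins, the nucleotide exchange factors of cytosolic Hsp70. Hspa4 was at 66.4 CPM (46.5 to 91.9) and 139 CPM (113 to 168), a log2 ratio of 1.06 (0.50 to 1.65). Hsph1 was at 103 CPM (78.0 to 134) and 185 CPM (155 to 219), a log2 ratio of 0.84 (0.38 to 1.32). The Hsp110 genes thus had the highest ratios of the 10 members on fewer UMIs, 36 and 56 in the fresh library, while the Hsp90 genes had the lowest of the cytosolic ones.

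In the ER, Hspa5 on chr2:34771970-34777547 encodes BiP, the Hsp70 that also holds the stress sensors of the ER membrane. It was at 271 CPM (229 to 319) and 354 CPM (312 to 400), a log2 ratio of 0.38 (0.09 to 0.69) that was −0.22 as mean counts per cell and −0.10 per spike-in count. Hsp90b1 on chr10:86690209-86705509 encodes Grp94, the Hsp90 that folds integrins and Toll-like receptors. It was at 275 CPM (232 to 323) and 436 CPM (389 to 486), a log2 ratio of 0.66 (0.38 to 0.96). A further gene, 1810014B01Rik, overlaps it on the opposite strand.

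In mitochondria, Hspa9 encodes mortalin, the Hsp70 that pulls imported proteins through the inner membrane. It was the member with a ratio below 0, at 112 CPM (86.0 to 144) and 103 CPM (81.5 to 129), with a log2 ratio of −0.12 (−0.63 to 0.39). Hspd1 on chr1:55077835-55088243 and Hspe1 on chr1:55088132-55091307, the ring and the lid of the chaperonin, lie head to head and overlap on opposite strands. Hspd1 was at 116 and 128 CPM, a log2 ratio of 0.14 (−0.34 to 0.62). Hspe1 was at 159 and 199 CPM, a log2 ratio of 0.33 (−0.07 to 0.73). All 3 intervals held 0. The 3 genes have 1, 5 and 6 named pseudogenes, and the authors discarded reads with several equally good places in the genome. Whether strand was used in counting is not given in the sources used here, so reads from the overlap of Hspd1 and Hspe1 are uncertain.

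Within identities the scale again set the direction of many ratios. As mean expected counts per cell, with no scaling, the ratio was below 0 in 6 of 7 identities for Hsp90aa1, in 5 of 7 for Hsp90ab1, Hspa8 and the cytosolic sum, in 4 of 7 for the ER sum and in 7 of 7 for the mitochondrial sum. The values that follow are on the CPM scale. For Hspa8 the MeOH-fixed level in CPM was the higher one in 7 of 7 identities with a ratio, with every interval above 0, from 0.53 (0.23 to 0.82) in nIPCs and neuroblasts to 1.82 (1.19 to 2.50) in oligodendrocyte precursor cells (OPCs). In nIPCs and neuroblasts its level was 1328 CPM in fresh and 1913 CPM in MeOH-fixed cells. In OPCs it was 526 and 1860 CPM. In immature neurons it was 1200 and 1772 CPM, in astrocytes and RGLs 694 and 1007 CPM, in oligodendrocytes 1256 and 1861 CPM, and in endothelial cells 616 and 1404 CPM. The highest fresh level among these was in nIPCs and neuroblasts, which also led in the MeOH-fixed library. In both libraries their interval overlapped that of oligodendrocytes, the next identity. The fresh oligodendrocyte level came from 2 cells. Without the deeper of them, which held 80.9% of their UMIs, it was 2579 CPM, above the MeOH-fixed level. As mean counts per cell, the log2 ratio of Hspa8 was above 0 in OPCs (0.71) and endothelial cells (0.86) and below 0 in the other identities, from −0.87 in nIPCs and neuroblasts to −0.11 in immature neurons. The fresh OPCs were 5 cells, and the deepest held 50.2% of their UMIs. Without it the fresh Hspa8 level in OPCs was 632 CPM. The same cell enters the other fresh OPC levels.

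In CPM, the Hsp90 genes did not run in 1 direction across identities. Hsp90ab1 was higher in MeOH-fixed astrocytes and RGLs, at 334 CPM fresh and 712 CPM fixed (log2 ratio 1.09, 0.47 to 1.73, and −0.04 as mean counts per cell). It was higher in OPCs as well, at 584 and 1564 CPM (1.42, 0.79 to 2.08, and 0.30 as mean counts per cell). In nIPCs and neuroblasts, where its level was highest in both libraries, it was 2203 and 1969 CPM, and the interval of the ratio held 0 (−0.16, −0.43 to 0.10). The MeOH-fixed level there lay close to the 1942 CPM of immature neurons, with overlapping intervals. Hsp90aa1 was higher in MeOH-fixed nIPCs and neuroblasts, at 1108 and 1720 CPM (0.63, 0.32 to 0.95), and in OPCs, at 624 and 1120 CPM (0.84, 0.19 to 1.53), but at −0.77 and −0.27 as mean counts per cell. In astrocytes and RGLs it was 297 and 246 CPM, with an interval from −1.16 to 0.57. The balance of the isoforms was compared between the fresh and the MeOH-fixed cells of an identity. Hsp90ab1 took 66.5% (62.5 to 70.3) of the pair's UMIs in fresh and 53.4% (47.8 to 58.9) in MeOH-fixed nIPCs and neuroblasts. In astrocytes and RGLs it took 52.9% (40.6 to 64.9) and 74.4% (63.2 to 83.6), and these intervals overlapped.

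In microglia, the resident macrophages of the brain, both Hsp90 genes were lower in the MeOH-fixed library while Hspa8 was higher on the CPM scale. Hsp90aa1 was 1227 CPM (57 UMIs in 10 cells) in fresh and 339 CPM (5 UMIs in 7 cells) in MeOH-fixed microglia, a log2 ratio of −1.85 (−3.53 to −0.55). Hsp90ab1 was 1205 CPM (56 UMIs) and 475 CPM (7 UMIs), a log2 ratio of −1.34 (−2.72 to −0.21). Hspa8 was 774 CPM (36 UMIs) and 1562 CPM (23 UMIs), a log2 ratio of 1.01 (0.19 to 1.81) that was −0.13 as mean counts per cell. Cell by cell, Hsp90aa1 ranged from 0 to 18 UMIs in fresh microglia, with a median of 5.5, and from 0 to 1 in MeOH-fixed microglia. Hsp90ab1 ranged from 1 to 14 and from 0 to 3 UMIs, and Hspa8 from 1 to 7 in both. No MeOH-fixed microglial cell had more than 3 UMIs of an Hsp90 gene, while the ranges of Hspa8 were the same.

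The microglial ratios of the Hsp90 genes were negative under 9 of 9 alternatives each, from −3.00 to −0.81 for Hsp90aa1 and from −2.65 to −1.15 for Hsp90ab1. The filters on mitochondrial percentage and on the deepest cells left out no microglial cell, so they could not move these ratios. Microglial cells had medians of 5116 transcripts in the fresh and 2141 in the MeOH-fixed library, and the median mitochondrial percentages were 9.23% and 15.7%. Their part in the result was not tested. The microglial identity held 5 of 5 markers above the other cells in both libraries. Hspa1a, the heat-inducible Hsp70, was at 237 CPM in fresh microglia, its highest identity there, which held 11 of its 14 fresh UMIs, and it had 6 UMIs in the whole MeOH-fixed library.

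**Figure D2:**
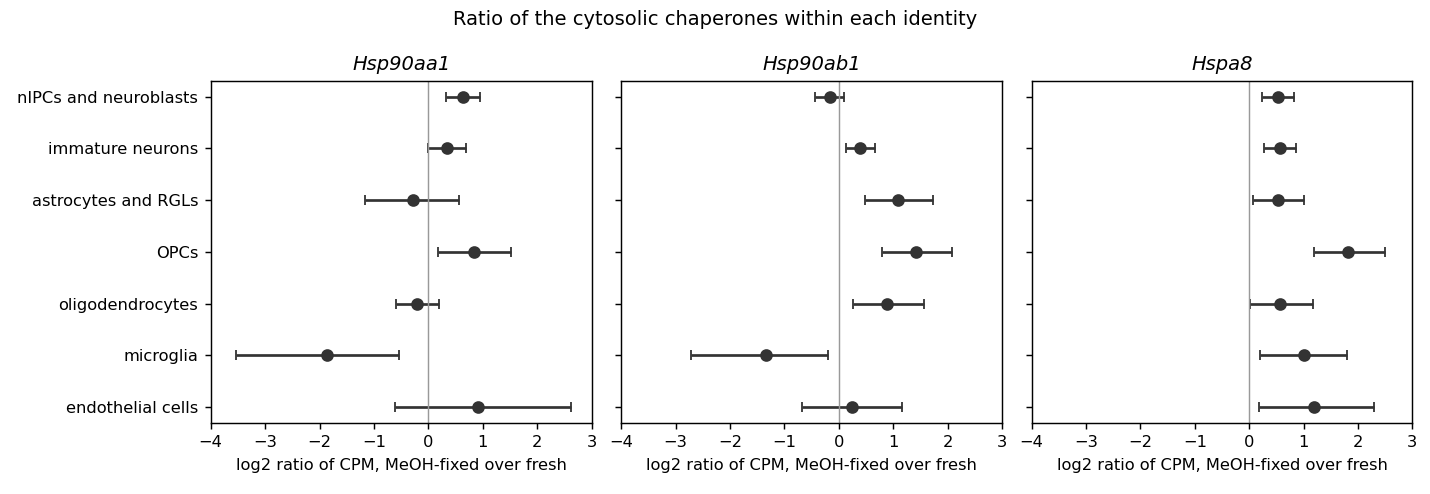
Log2 ratio of CPM, MeOH-fixed over fresh, of Hsp90aa1, Hsp90ab1 and Hspa8 within each identity, with exact 95% conditional intervals and a line at 0. Hspa8 lay above 0 in 7 of 7 identities on the CPM scale (in 2 of 7 as mean counts per cell), while Hsp90aa1 and Hsp90ab1 lay below 0 in microglia, at −1.85 and −1.34 (−3.00 and −2.49 as mean counts per cell). The fresh oligodendrocytes were 2 cells, and without the deeper one their Hspa8 level was above the MeOH-fixed one.

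Oligodendrocytes, which wrap axons in myelin, had the highest Hsp90aa1 of all identities in both libraries, at 2851 CPM in 2 fresh cells and 2466 CPM in 13 MeOH-fixed cells. In the fresh library 64 of the 70 UMIs came from 1 cell of 20072 transcripts, without which the level was 1289 CPM and the log2 ratio went from −0.21 to 0.94. The same cell gave 12 of 12 Hspd1 UMIs of the fresh oligodendrocytes, where that gene was at 486 CPM against 109 CPM in MeOH-fixed cells (log2 ratio −2.15, −3.52 to −0.82). The fresh values of these genes in oligodendrocytes therefore describe 1 cell. In the MeOH-fixed library, Hsp90aa1 was 10.0-fold higher in oligodendrocytes than in astrocytes and RGLs, the lowest identity, and 3 of the neighbouring pairs in the order of identities had intervals apart.

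The other cytosolic members were sparse within identities. Hspa4 was at 92.8 CPM in fresh and 190 CPM in MeOH-fixed immature neurons (log2 ratio 1.04, 0.01 to 2.24), and at 0 UMIs in the microglia of both libraries. These zeros allow up to 64.5 CPM in fresh and 204 CPM in MeOH-fixed microglia, taking 3 counts as the limit. Hsph1 in OPCs was at 77.9 CPM, on 4 UMIs, and 338 CPM, on 16 UMIs (log2 ratio 2.12, 0.48 to 4.16), the 4 fresh UMIs lying in 1 cell. Summed, the cytosolic members lay above 0 in 6 of 7 identities in CPM and in 2 of 7 as mean counts per cell, with CPM log2 ratios of 0.27 in nIPCs and neuroblasts, 0.31 in oligodendrocytes, 0.44 in immature neurons, 0.56 in astrocytes and RGLs, 0.62 in endothelial cells and 1.41 in OPCs. Microglia were the identity with a lower sum, at −0.45 (−1.03 to 0.09). Without the deepest of the 5 fresh OPCs, the fresh sum in OPCs was 2291 in place of 1851 CPM, below the 4924 CPM of MeOH-fixed OPCs.

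**Figure D3:**
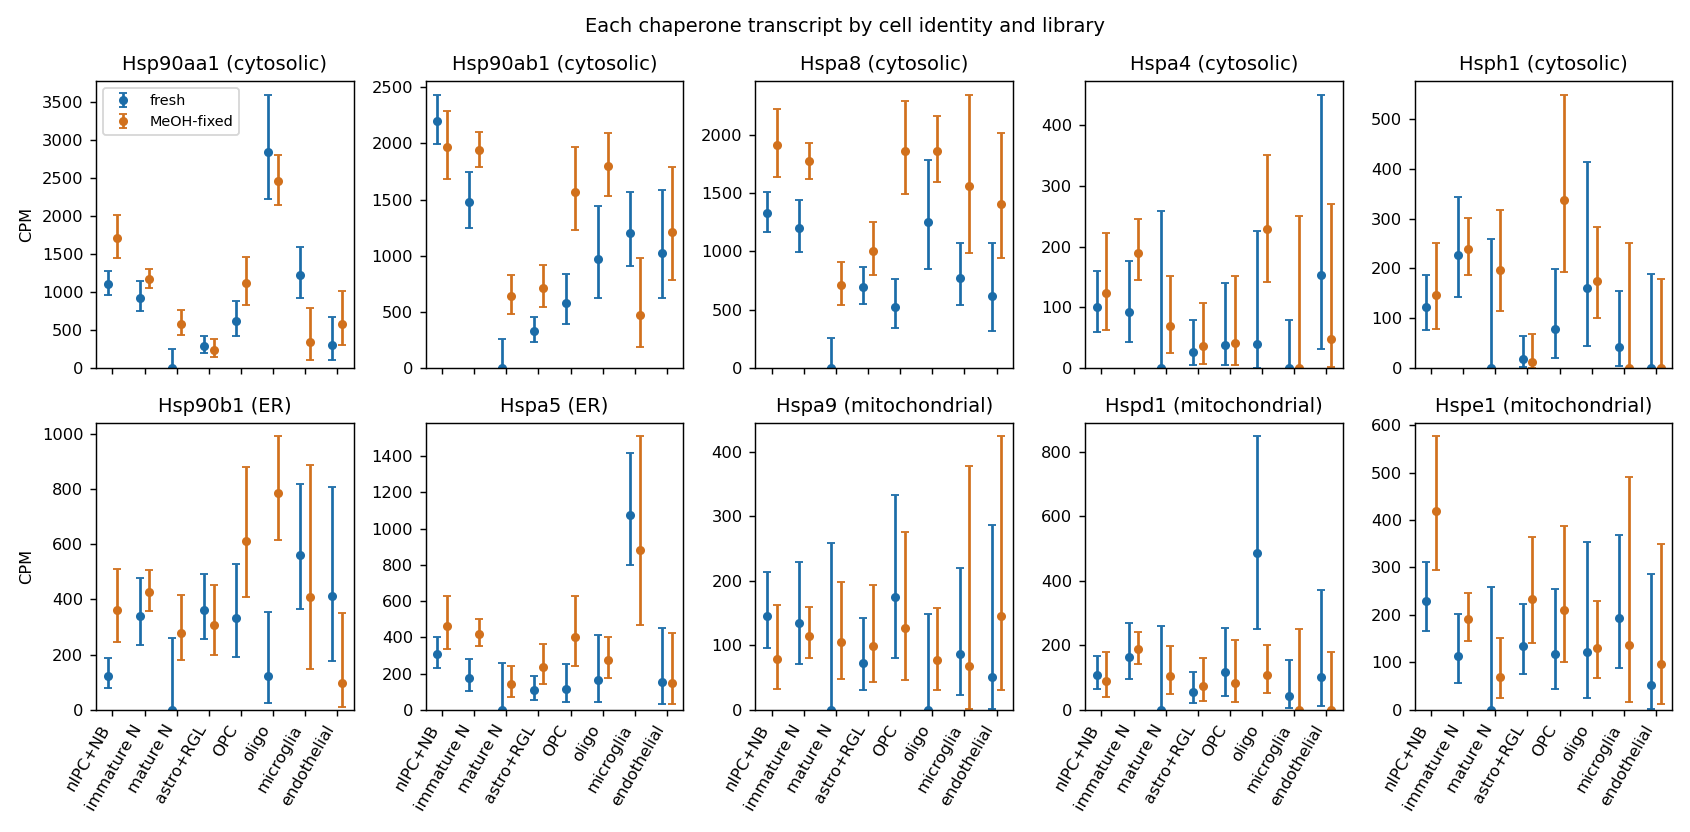
Level in CPM of each of the 10 chaperone transcripts in the 8 cell identities of the fresh and the MeOH-fixed library, with exact 95% Poisson intervals (nIPC+NB, nIPCs and neuroblasts; N, neurons). Hsp90ab1 and Hspa8 were highest in nIPCs and neuroblasts in both libraries, Hsp90aa1 in oligodendrocytes and Hspa5 in microglia. For Hsp90ab1, Hspa8 and Hspa5 in the MeOH-fixed library, no neighbouring identities in the order had intervals apart. The fresh interval of Hspa8 in nIPCs and neuroblasts overlapped that in oligodendrocytes.

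The ER members had another order of identities. Hspa5 was highest in microglia, at 1077 CPM (799 to 1419) in fresh and 882 CPM (470 to 1509) in MeOH-fixed cells. Against all other cells of the same library this was 5.50-fold higher in fresh (log2 ratio 2.46) and 2.57-fold higher in MeOH-fixed cells (1.36, 0.43 to 2.16). UMIs of Hspa5 were found in 7 of 10 fresh and 6 of 7 MeOH-fixed microglia, with up to 16 and up to 4 per cell. Between libraries the microglial level in CPM did not differ beyond counting error (log2 ratio −0.29, −1.29 to 0.62). As mean counts per cell the log2 ratio was −1.43. As a share of the members' UMIs, the ER pair took 31.4% (25.6 to 37.7) in fresh and 33.3% (21.4 to 47.1) in MeOH-fixed microglia. In the other identities it took 4.61% to 22.3% in fresh and 6.49% to 18.3% in MeOH-fixed cells, with astrocytes and RGLs next to microglia in both.

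**Figure D4:**
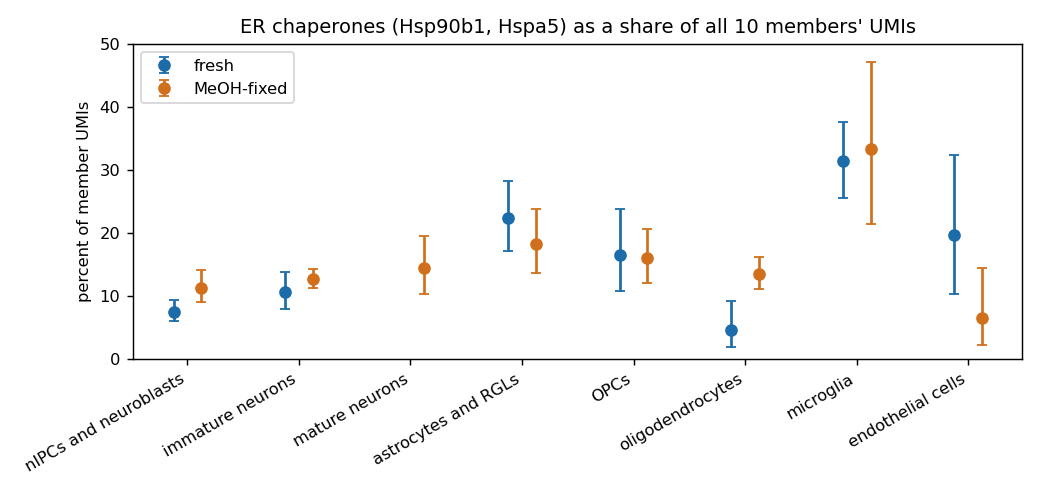
UMIs of the ER chaperones Hsp90b1 and Hspa5 as a percentage of the UMIs of all 10 members, by identity and library, with exact 95% Clopper-Pearson intervals. Microglia had the highest share in both libraries, 31.4% and 33.3%, and the fresh cells called mature neurons are left out because they held 0 UMIs.

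Outside microglia the log2 ratio of the ER sum in CPM was above 0 in 5 of 6 identities. Hspa5 was at 175 CPM in fresh and 420 CPM in MeOH-fixed immature neurons (log2 ratio 1.26, 0.53 to 2.09). Hsp90b1 was at 124 and 362 CPM in nIPCs and neuroblasts (1.55, 0.72 to 2.40) and at 121 and 787 CPM in oligodendrocytes (2.70, 1.09 to 5.01, on 3 fresh UMIs). In astrocytes and RGLs the level of Hsp90b1 was 361 and 307 CPM, with an interval that held 0 (−1.02 to 0.52). The ER sum had log2 ratios of 0.93 in nIPCs and neuroblasts (−0.47 as mean counts per cell), 0.20 in astrocytes and RGLs (−0.93), 0.72 in immature neurons, 1.18 in OPCs and 1.91 in oligodendrocytes, but −0.34 in microglia and −1.22 in endothelial cells, the last on 11 and 5 UMIs. Without microglia, the ER sum over all cells had a log2 ratio of 0.81 in place of 0.53, and its difference from the cytosolic sum was 0.33 in place of 0.06.

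Of the mitochondrial genes, Hspe1 was highest in nIPCs and neuroblasts in both libraries, at 230 CPM (165 to 312) in fresh and 418 CPM (294 to 577) in fixed cells, for a log2 ratio of 0.86 (0.18 to 1.54) that was −0.54 as mean counts per cell. There it took 68.3% of the UMIs of the chaperonin pair in fresh and 82.2% in MeOH-fixed cells, against 40.7% and 50.4% in immature neurons. Hspa9 ranged from 0 to 175 CPM over the identities of the fresh library and from 67.9 to 145 CPM in the MeOH-fixed library. No neighbouring identities in its order, or in that of Hspe1, had intervals apart. In CPM the mitochondrial sum had an interval that held 0 in 7 of 7 identities.

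Neurons were compared with non-neuronal cells inside each library, leaving nIPCs and neuroblasts apart. The cytosolic sum in fresh cells was 3429 CPM in 7 neurons and 2252 CPM in 41 non-neuronal cells, a log2 ratio of neurons over non-neuronal cells of 0.61 (0.42 to 0.80). In MeOH-fixed cells it was 4631 CPM in 44 neurons and 4288 CPM in 67 non-neuronal cells, a log2 ratio of 0.11 (0.00 to 0.22). The ER sum ran the other way, at −0.57 (−1.06 to −0.11) in fresh and −0.15 (−0.41 to 0.12) in MeOH-fixed cells. The fresh neurons are few. Their 5 immature cells had a median of 29094 transcripts, from 971 to 31797. The cells of 31797, 31660 and 29094 transcripts together gave most of the neuronal transcripts. The same cells carry the fresh immature-neuron levels given above. Without the deepest 10% of cells 4 fresh neurons remain, among them the 2 cells called mature neurons, which held 0 UMIs of the members. The cytosolic log2 ratio is then −1.27 in fresh and −0.08 in MeOH-fixed cells. Without the 2 cells called mature neurons it is 0.80 in fresh cells. For the ER sum the sign in fresh cells also turned, to 0.79 as mean counts per cell and 0.14 with immature neurons set against astrocytes and RGLs alone.

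Past 1.5-fold, 3 members were higher in fresh neurons (Hsp90ab1 at 0.97, Hspa4 at 1.19 and Hsph1 at 2.06) and 1 was lower (Hspa5 at −0.96), where 44.1% of 1022 genes were higher and 25.9% lower. In MeOH-fixed cells 3 members were higher in neurons (Hspa4 at 0.63, Hsph1 at 0.84 and Hspd1 at 1.11) and 0 were lower, where 45.1% of genes were higher and 22.0% lower. The counts lie below the share of all genes, and the interval of Hspa4 held 0 in both libraries (−0.32 to 2.69 in fresh and −0.04 to 1.34 in MeOH-fixed cells). Between libraries the cytosolic sum in CPM had a log2 ratio of 0.43 (0.27 to 0.60) in neurons, 0.93 (0.78 to 1.08) in non-neuronal cells and 0.27 (0.11 to 0.43) in nIPCs and neuroblasts. The non-neuronal class held 2 oligodendrocytes in the fresh and 13 in the MeOH-fixed library, and 10 and 7 microglia.

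**Figure D5:**
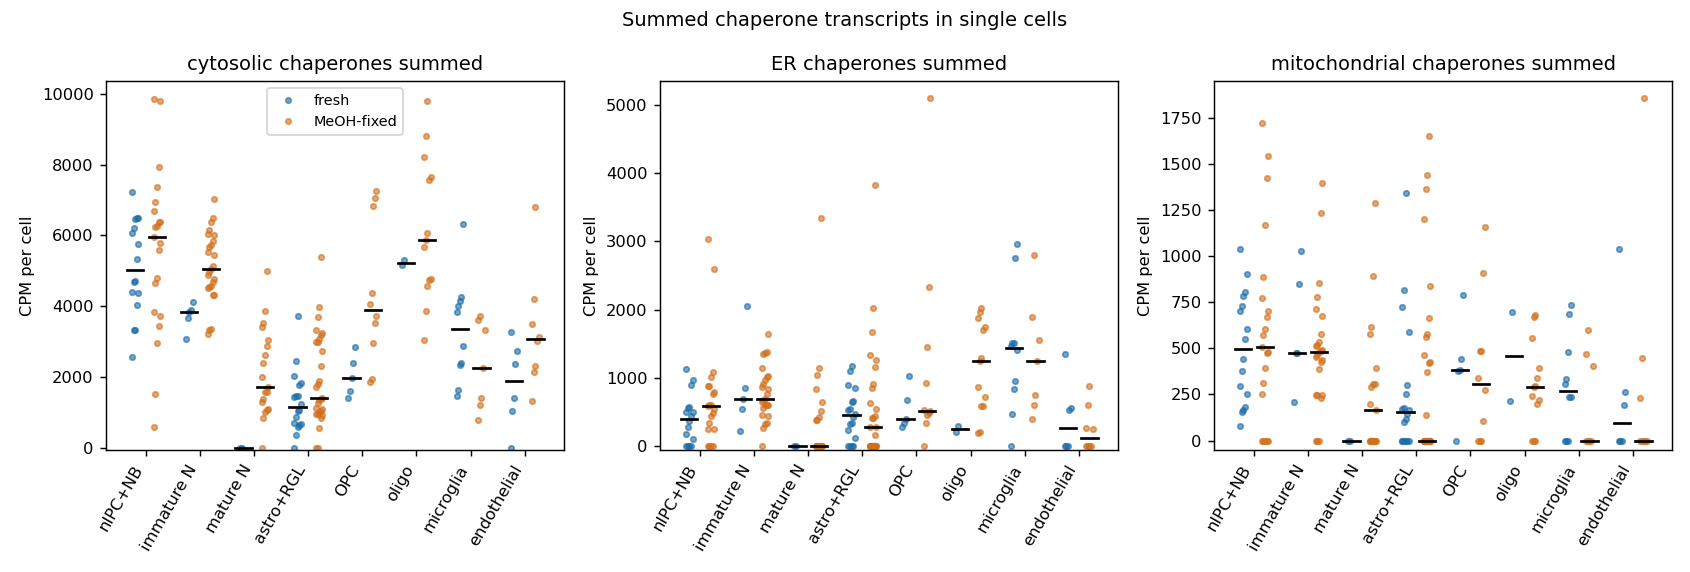
Summed cytosolic, ER and mitochondrial chaperone transcripts in single cells, in CPM per cell, by identity, with fresh cells in blue, MeOH-fixed cells in orange and black bars for the medians. The median cytosolic level over all cells was 2652 CPM in fresh and 3568 CPM in MeOH-fixed cells, and single cells of the libraries overlapped in every identity.

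Single cells showed how wide these levels were. The median cytosolic level per cell was 5020 CPM in fresh and 5945 CPM in MeOH-fixed nIPCs and neuroblasts, 3830 and 5056 CPM in immature neurons, and 1156 and 1399 CPM in astrocytes and RGLs. In OPCs it was 1975 and 3891 CPM, and in microglia 3371 and 2258 CPM. Astrocytes and RGLs had the lowest of these medians in both libraries, and of these identities microglia had a fresh median above the fixed one.

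The partners of the 10 genes were read from lists of 95 genes, of which 62 had at least 50 UMIs over both libraries. Of these 62, 20 were past 1.5-fold higher in MeOH-fixed cells and 2 lower, with a median log2 ratio of 0.37, beside 25.7% of 5099 genes higher, 14.0% lower and a median of 0.17. The ER folding genes had 5 of 10 higher and 0 lower (median 0.53). Calr and Canx, the lectin chaperones of glycoproteins, were at 253 and 384 CPM (0.60) and at 242 and 369 CPM (0.61). Manf, a secreted ER stress protein, had the highest ratio of that list (53.5 and 109 CPM, 1.03), and P4hb, a disulfide isomerase, the lowest (133 and 112 CPM, −0.25).

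Of the ER folding genes with a RefSeq promoter, 6 of 14 held the ER stress element, and 0 held the heat shock element. 3 of them are printed beside the ER members for comparison, on the strand of each gene.
Calr, chr8:84847069-84847098, minus strand: caacgCGTGGtcgaccctcATTGGcccata
Canx, chr11:50325794-50325823, minus strand: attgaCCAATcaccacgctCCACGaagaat
Pdia6, chr12:17266486-17266515, plus strand: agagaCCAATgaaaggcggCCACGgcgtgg
Pdia6, another disulfide isomerase, was at 133 and 181 CPM (log2 ratio 0.45). Among 17 cytosolic cochaperones with a promoter, 1 held the heat shock element, Chordc1, with 3 overlapping matches.
Chordc1, chr9:18292260-18292289, plus strand: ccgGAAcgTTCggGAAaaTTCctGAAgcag
Chordc1, an Hsp90 cochaperone, also had the highest ratio of its list, at 53.5 and 98.0 CPM (0.87).

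The cytosolic cochaperones had 3 of 10 genes past 1.5-fold higher and 0 lower, with Cdc37, which brings kinases to Hsp90, at −0.02. The cytosolic chaperonin TRiC and its helper prefoldin had 1 of 12 higher, Vbp1 (86.7 and 147 CPM, 0.76), with Pfdn2 lowest at −0.26 and a median of 0.18. The J proteins had 4 of 12 higher and 1 lower. Dnajc6, the auxilin that recruits Hspa8 to clathrin, was at 42.4 and 112 CPM (1.40), and Dnajb1, the heat-inducible J protein, at 70.1 and 46.3 CPM (−0.60, −1.31 to 0.11). Of 3 Hsp70 relatives 1 was higher, Hspa2 (0.88), with Hspa13 lowest at −0.39. Of the exchange factors and small heat shock proteins 2 of 3 were higher, with Cryab at 227 and 498 CPM (1.13) and Hspb1 at 35.0 and 49.0 CPM (0.48). Cryab was highest in oligodendrocytes, at 3250 and 3543 CPM, and Hspb1 in endothelial cells, at 924 and 1597 CPM.

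The mitochondrial partners had 2 of 8 genes higher and 0 lower, led by the protease subunit Afg3l2 (27.7 and 69.4 CPM, 1.33), with Lonp1 lowest at −0.25 and Trap1, the mitochondrial Hsp90, at 25.8 and 35.4 CPM (0.45). Of the 4 regulators, 2 were higher and 1 lower. Atf6, a sensor of the unfolded protein response, was at 35.0 and 92.5 CPM (1.40), and Hsf1, the heat shock factor, at 33.2 and 81.6 CPM (1.30). Atf4, the factor made when translation is held back under stress, was at 192 and 117 CPM (−0.71, −1.14 to −0.29). Of the heat-inducible Hsp70 genes, near-identical copies whose shared reads were discarded, Hspa1a was at 25.8 and 8.16 CPM and Hspa1b at 12.9 and 23.1 CPM, on 14 and 6 and on 7 and 17 UMIs.

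The genes most alike in pattern were found by Pearson's r of log2 levels over 14 groups of identity and library, which share libraries and depth. They were Gsk3a (0.85), Mrfap1 (0.80) and Prkacb (0.78) for the cytosolic sum, Cltc (0.87), Calr (0.79) and Scoc (0.79) for the ER sum, and Matr3 (0.85), Psmd1 (0.84) and Ptprs (0.83) for the mitochondrial sum. Between Hsp90aa1 and Hsp90ab1 r was 0.79 over the same groups, the highest of all pairs of members. The other cytosolic pairs ran from 0.26 to 0.74. In the ER, r was 0.37 between Hsp90b1 and Hspa5. In mitochondria it was 0.11 between Hspd1 and Hspe1, and 0.14 between Hspa9 and either of them.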

How the data were processed

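Single cells of the DG of C57BL/6J mice were sequenced by SORT-seq, 1 plate per condition. According to the study's methods and the submitters' processing notes, the authors used STAR and GRCm38 for mapping, left out reads with several equally good places, collapsed duplicates by UMI and analysed cells with Seurat 4.1.0 in R 4.2.0. The annotation and the use of strand are not given in the sources used here. The deposited matrices hold expected counts, in which the authors raised each number of UMIs to allow for transcripts tagged alike among 4096 possible UMIs. Cells had been kept by the authors at 800 to 35000 transcripts, over 500 genes, over 1.2 transcripts per gene and over 500 counts of spike-ins. The authors also deposited cell identities and the percent of mitochondrial counts for these cells. Doublets were not called here.

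Inverting the allowance for transcripts tagged alike gave UMI numbers at most 3.64e-12 away from whole ones. Expected counts were summed over cells and divided by the summed transcripts to give CPM. Sums carry exact Poisson intervals, ratios exact conditional binomial intervals and shares exact Clopper-Pearson intervals, all at 95%. Since each condition is 1 library, no test was made, and genes were counted by a fold of 1.5. The procedure was run on simulated counts, drawn for each gene and library from a Poisson distribution. These hold no spread between cells, so the run cannot test the intervals for it. Calculations used scipy 1.17.1, pandas 2.3.3 and numpy 2.4.6 in Python 3.11.15, with matplotlib 3.10.9 for plots. Gene positions came from GENCODE on GRCm38, and promoter sequences from RefSeq.

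The members and the partner lists were chosen with earlier results of these data known. All 10 members were named. From each partner list the genes with the highest and the lowest ratio among those with at least 50 UMIs were named, with Hspa1a, Hspa1b, Hspb1, Hsf1 and Trap1, and for each compartment the 3 other genes with the highest correlation. Calr, Canx, Pdia6 and the identities and cells singled out in the text were chosen after their values were seen. Alternatives were whole UMIs, other totals and weights, thinning to 800 UMIs, other filters on cells, genes and folds, and all 384 barcodes.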

Additional observations from a re-analysis of the deposited data

Results flagged for a closer look

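Within identities, the direction of the CPM ratio of MeOH-fixed over fresh differed for both Hsp90 genes, with intervals on opposite sides of 0. The log2 ratio of Hsp90aa1 was 0.63 in nIPCs and neuroblasts and 0.84 in OPCs but −1.85 in microglia. That of Hsp90ab1 was 0.39 in immature neurons, 1.09 in astrocytes and RGLs, 1.42 in OPCs and 0.88 in oligodendrocytes but −1.34 in microglia. As mean counts per cell these values were −0.77, −0.27 and −3.00 for Hsp90aa1 and −0.28, −0.039, 0.30, 0.072 and −2.49 for Hsp90ab1, so that Hsp90aa1 lay below 0 in all 3 identities. The differences between identities were not tested, since each identity holds cells of 1 library per condition.

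The 320 fresh and 252 MeOH-fixed barcodes that failed the filter, which the comparisons did not use, also held chaperone UMIs, above the limit that a count of 0 allows. They include the 8 control wells of each plate that received no cell, whose place among the barcodes was not used here. The cytosolic sum there was 2320 and 1971 CPM, the ER sum 240.1 and 249.3 CPM, and the mitochondrial sum 240.1 and 380.0 CPM. In the failed barcodes the cytosolic, ER and mitochondrial sums were thus lower than in the filtered cells of the same library. The intervals overlapped for the mitochondrial sum of the MeOH-fixed library, which was 430 CPM in filtered cells.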

How the results depend on the processing

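The alternatives gave 133 ratios and differences over compartments, and 6 of these were differences in which a common scale cancels. Of the 127 able to move, 18 had the other sign than the value reported, 8 of them where the reported interval lay clear of 0. As mean expected counts per cell, the log2 ratios between libraries were −0.13 for the cytosolic, −0.074 for the ER and −0.45 for the mitochondrial sum, −0.20 for Hsp90aa1, −0.34 for Hsp90ab1, −0.22 for Hspa5, −0.13 for Hspa8 in microglia and −0.039 for Hsp90ab1 in astrocytes and RGLs, with 0 members past 1.5-fold higher and 1 lower. On that scale neurons over non-neuronal cells were at 1.97 (fresh) and 1.33 (MeOH-fixed) for the cytosolic, 0.79 and 1.07 for the ER and 1.48 and 1.56 for the mitochondrial sum. Per spike-in count the values were −0.011, 0.045 and −0.34 for the sums, −0.076, −0.22 and −0.10 for Hsp90aa1, Hsp90ab1 and Hspa5, and 0 members higher and 1 lower. Over all cells these scales shift every ratio between libraries alike, and the median of genes with at least 200 UMIs moved by −0.61 and −0.49. The values within microglia and within astrocytes and RGLs moved further as mean counts per cell. With CPM averaged over cells, the cytosolic sum was 0.39, the ER sum 0.29, and fresh neurons over non-neuronal cells 0.30 for the cytosolic sum. Thinned to 800 UMIs per cell, the cytosolic sum was 0.34, the ER sum 0.97, their difference 0.63, Hsp90ab1 −0.10, the counts 7 and 1, and neurons over non-neuronal cells for the ER sum 0.14 (fresh) and −0.69 (MeOH-fixed). With identities weighted equally the ER sum was 0.23 and its difference from the cytosolic sum −0.22. Without microglia they were 0.81 and 0.33. At a lower fold 7 members were higher and at 2-fold 1 was. Without the deepest 10% of cells, neurons over non-neuronal cells were at −1.27 (fresh) and −0.083 (MeOH-fixed) for the cytosolic and −1.48 (fresh) for the ER sum. The fresh neurons then left were 4 cells, among them the cells called mature neurons, which held 0 member UMIs. With nIPCs and neuroblasts added to the neurons the fresh cytosolic value was 0.94. With immature neurons against astrocytes and RGLs alone, it was 1.52 (fresh) and 1.40 (MeOH-fixed), and 0.14 and 0.65 for the ER sum. The ER minus cytosolic difference was also −0.095 with CPM averaged over cells and −0.097 without the deepest cells. The mitochondrial sum of fresh neurons over non-neuronal cells was −0.035 when thinned, −0.44 without the deepest cells and −0.080 without the cell with most UMIs. Causes of these changes were not tested. Alternatives chosen after seeing the data left out the fresh cells called mature neurons, the cell with most UMIs, or all neurons. They moved 1 such value, the fresh cytosolic sum of neurons over non-neuronal cells, to 0.80 without the fresh mature neurons, and moved none of the other 27 beyond counting error. Hspd1 in oligodendrocytes had no value under thinning, without the deepest cells and without the cell with most UMIs. No paired analysis was possible because each condition has 1 library. Depth limits Hspa4, Hsph1 and the mitochondrial genes, with 36 to 86 UMIs in the fresh library, and every identity of fewer than 5 cells.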
